A study of Mus musculus with 6 samples.

Results

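The genes described here are 35 genes of sterol and fatty acid synthesis, chosen by name. They were measured in sorted cells, labelled as Lgr5+ intestinal stem cells, of mice given DBZ or vehicle. A gene was taken up where the array's probe table gave a probe set its symbol alone, and 34 of the 35 had such a probe set, of 18193 genes in all. Acat2 had none and is not analysed here. The 34 are 11 enzymes of fatty acid synthesis, 17 enzymes of sterol synthesis, the sterol transfer gene Stard4 and 5 regulators of both branches.

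Cells make cholesterol from acetyl-CoA by way of mevalonate, farnesyl diphosphate, squalene and lanosterol, and they make fatty acids from the same acetyl-CoA by way of malonyl-CoA and palmitate. Both branches are switched on by the transcription factors SREBP-1 and SREBP-2, which Scap carries from the endoplasmic reticulum to the Golgi for cleavage when sterols are low and which the Insig proteins hold back when sterols are high. The intestine is one of the main sites of cholesterol synthesis in the body.

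The series holds 6 Affymetrix arrays of total RNA, each from 1 mouse as the titles word it. The DBZ group is 3 Lgr5-EGFP-IRES-creERT2 mice given DBZ, an inhibitor of gamma-secretase, the protease that frees the active part of Notch receptors. The vehicle group is 3 mice of the same genotype given DMSO. In both groups the small intestinal cells with high GFP were sorted 24 h after treatment, the GFP being read out from the Lgr5 gene, which marks crypt base stem cells. All mice thus carry the EGFP and CreERT2 cassette in Lgr5. Ages are not given in the labels, and the dose is left out because its unit looks incomplete. Titles put the arrays in their groups, although the description field names DMSO for all 6. Whether the mice shared litters or sorting days is not given, so the p-values measure the spread between these samples.

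Known targets of Notch signalling were read first. Olfm4, Nrarp and Hes1 fell by 6.63, 1.89 and 0.82 on the log2 scale, and Atoh1, which Notch represses, rose by 1.90 (limma, Benjamini-Hochberg adjusted p = 0.00042, 0.016, 0.039 and 0.0097). With 1 array left out, the call of Olfm4 was kept in 6 of 6 cases, that of Atoh1 in 5 (lost without vehicle replicate 3), that of Nrarp in 3 (lost without any vehicle array) and that of Hes1 in 2 (lost without DBZ replicate 3 or any vehicle array). The epithelial gene Epcam lay at 17187 to 19609 intensity units in DBZ arrays and 16997 to 19018 in vehicle arrays. Of 10 stem cell markers, Rgmb rose (0.79) and Olfm4, Ascl2 (-1.03) and Aqp4 (-1.37) fell, while Lgr5, at 209 to 242 in DBZ arrays and 204 to 271 in vehicle arrays, overlapped. Markers of goblet and enteroendocrine cells were higher in DBZ arrays, while those of Paneth cells, also secretory, lay on both sides. Of 6 Paneth markers 2 rose (Pla2g2a 2.18 and Mmp7 1.37) and 4 were negative, with a median of -0.16. The lowest of them, Ang4 at -2.70, did not pass (limma, adjusted p = 0.068). Of 8 goblet markers 3 rose (Spdef 1.78, Agr2 1.46 and Fcgbp 0.61) and all 8 were positive, with a median of 0.51 and summed levels of 135082 to 166862 in DBZ arrays and 108693 to 116568 in vehicle arrays. Of 8 enteroendocrine markers 3 rose (Neurod1 1.84, Isl1 1.67 and Pcsk1 0.78), and the groups did not overlap for any of the 8, with a median of 1.55 and summed levels of 3732 to 8682 in DBZ arrays and 1972 to 2479 in vehicle arrays. Without 1 array, 1 to 4 stem cell, 0 to 5 goblet and 1 to 7 enteroendocrine markers passed, the fewest without any one vehicle array. Their part in the values of the 34 genes was not tested. Summed levels of 11 adipocyte markers were 12349 to 29949 in DBZ arrays and 3340 to 7180 in vehicle arrays, and those of 11 fibroblast and smooth muscle markers 42606 to 49679 and 19974 to 29076. No marker was at 0, though the adipocyte markers Lep and Cidea were dim in both groups. Markers of differentiated cells were bright in vehicle arrays too, with Fabp2 at 23903 to 24320, Krt20 at 13528 to 14027 and Muc2 at 15797 to 18527. Intensities of different probe sets do not give shares of cells, and the purity of the sorted cells was not tested. RNA integrity was read from the actin control, whose 3' over 5' ratio was 1.51 to 1.57 in DBZ arrays and 1.61 to 2.22 in vehicle arrays and highest in vehicle replicate 1.

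A single gene of the 34 passed the test. Fads2, a desaturase that starts the making of long polyunsaturated fatty acids, fell in DBZ arrays. Genes were tested on the scale of log2(intensity + 16) with limma, with a Benjamini-Hochberg adjusted p under 0.05 as the threshold. By this rule 2.94% of the 34 changed, against 5.34% of all genes tested, of which 3.82% rose and 1.52% fell. The DBZ and vehicle arrays did not overlap for 11 of the 34 genes, or 32.4%, against 33.2% of all genes. Of the 11, 5 were higher and 6 lower in DBZ arrays, against 17.3% and 15.8% of all genes. At an unadjusted p under 0.05 there were 10, or 29.4%, against 26.3% of all genes, with 5 higher and 5 lower against 15.1% and 11.3% of all genes. These shares lie near the background, and nothing particular to the 34 genes is read from them.

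The branches had medians of opposite sign. The 11 fatty acid enzymes had a median log2 fold change of 0.19, from -1.08 for Fads2 to 1.99 for Scd1, and 9 were positive and 2 negative. The 17 sterol enzymes had a median of -0.12, from -0.54 for Dhcr7 to 0.46 for Ebp, with 6 positive and 11 negative. The median over all genes was -0.02, with 8263 of the 18193 genes positive and 9930 negative. Array by array, the median deviation of the fatty acid enzymes from their vehicle means was 0.40, 0.29 and 0.29 in DBZ replicates 1, 2 and 3, and -0.12, 0.14 and -0.11 in vehicle replicates 1, 2 and 3. The same measure for the sterol enzymes was 0.07, -0.13 and -0.14 in the DBZ arrays and -0.13, 0.07 and -0.03 in the vehicle arrays. The 3 DBZ arrays lay above the 3 vehicle arrays for the fatty acid enzymes, while the groups overlapped for the sterol enzymes. Over 16 alternatives the fatty acid median ranged from 0.12 to 0.47 and the sterol median from -0.20 to -0.02. The medians describe lists chosen with earlier results known and were not tested.

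**Figure D1:**
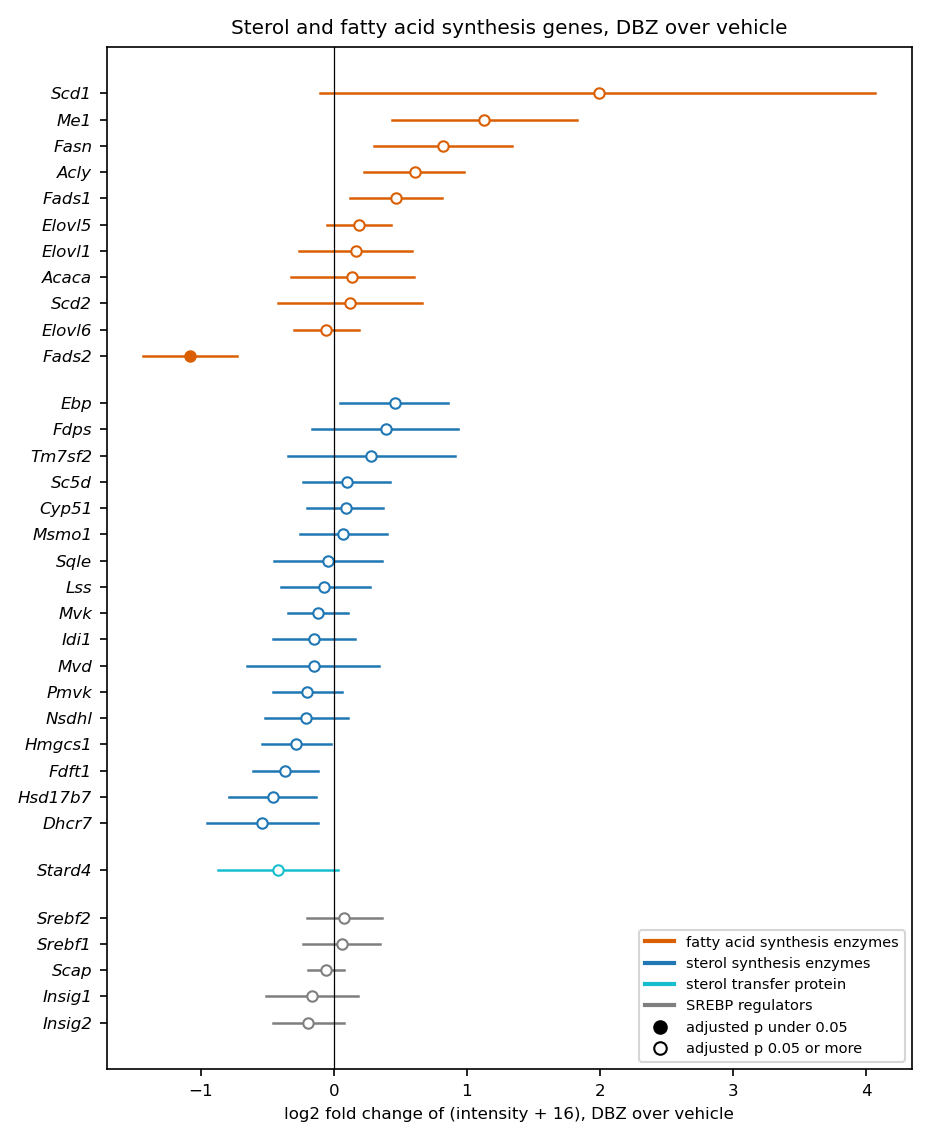
Log2 fold change of (intensity + 16), DBZ over vehicle, for 34 genes, grouped and coloured by role, with lines for the 95% confidence interval of limma (3 arrays per group). Fads2 at -1.08 is the only filled point (adjusted p under 0.05), and the sterol enzymes lie between -0.54 and 0.46.

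Fads2 had 537, 372 and 407 intensity units in DBZ replicates 1, 2 and 3, against 848, 973 and 983 in vehicle replicates 1, 2 and 3. Every DBZ array was below every vehicle array. The means were 439 ± 87.1 in DBZ and 935 ± 75.0 in vehicle arrays (SD, n = 3 each), which is -1.08 ± 0.14 as a log2 fold change (SE; adjusted p = 0.026 by limma with Benjamini-Hochberg adjustment). The gene has 2 further probe sets. One had 93.1, 59.7 and 68.9 in DBZ arrays, against 177, 178 and 176 in vehicle arrays, and the other had 250, 185 and 187, against 253, 314 and 309. On both of them, too, the groups did not overlap, at log2 differences of -1.12 ± 0.13 and -0.47 ± 0.14 (SE, n = 3 each). The call was near the threshold, since it ended without any one of the arrays except DBZ replicate 1, at adjusted p = 0.051 to 0.096, while the log2 fold change stayed between -1.23 and -0.97. In these bulk arrays, fewer cells that hold a transcript and less of it per cell cannot be told apart.

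Markers of enterocytes and lymphocytes, and part of the stem cell markers, lay on the same side as Fads2. All 8 measured enterocyte markers were negative, from -1.76 for Fabp1 to -0.04 for Fabp2, with a median of -0.36. Their summed levels were 48367 to 57288 in DBZ arrays and 59766 to 63733 in vehicle arrays. None passed the test (0; limma), and 5 had an unadjusted p under 0.05 (62.5%, against 26.3% of all genes). The groups did not overlap for 3 of the 8 (37.5%, against 33.2% of all genes). Lymphocyte markers were negative too, all 7 measured, with a median of -0.38, 0 past the test (limma) and 1 at an unadjusted p under 0.05. Their summed levels were 1722 to 3654 in DBZ arrays and 3267 to 6576 in vehicle arrays, which overlap. Of 10 stem cell markers 6 were negative and 4 positive. Olfm4, Ascl2 and Aqp4 fell and passed the test, and Rgmb passed it on the other side. The part of any of these cells in the Fads2 result was not tested.

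Fads1, which acts later in the same polyunsaturated pathway and neighbours Fads2 in the genome, had the opposite sign. It had 328, 314 and 390 units in DBZ arrays, against 200, 277 and 260 in vehicle arrays. The groups did not overlap, but the log2 fold change of 0.47 ± 0.14 (SE, n = 3 each) did not pass (limma, adjusted p = 0.1). Fads3, the third gene of this cluster and not one of the 34, rose to 122, 100 and 156 units in DBZ arrays, against 60.9, 70.9 and 71.8 in vehicle arrays (log2 fold change 0.75 ± 0.15; limma, adjusted p = 0.0478). That call was lost whichever of the 6 arrays was left out, at adjusted p = 0.055 to 0.14 and log2 fold changes of 0.60 to 0.88. The within-array log2 ratio of Fads2 to Fads1 was 0.69, 0.23 and 0.06 in DBZ arrays and 2.00, 1.75 and 1.86 in vehicle arrays, a difference of -1.54. That ratio was computed after the values had been seen, and it shows unequal change of the 2 genes only.

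Acly, Fasn and Me1 were higher in every DBZ array without passing the test, and Acaca overlapped between the groups. Acly, which splits citrate to give cytosolic acetyl-CoA, had 2289, 2511 and 2811 units in DBZ arrays, against 1321, 1820 and 1877 in vehicle arrays. Fasn, the synthase that builds palmitate, had 1160, 765 and 1372 units, against 577, 672 and 553. Me1, the malic enzyme that supplies NADPH for lipid synthesis, had 237, 174 and 370 units in DBZ arrays, against 77.9, 127 and 114 in vehicle arrays. For all 3 genes the groups did not overlap, with DBZ replicate 3 the highest of the 6 arrays. Their log2 fold changes were 0.61 ± 0.15, 0.82 ± 0.21 and 1.13 ± 0.28 (SE, n = 3 each; limma, Benjamini-Hochberg adjusted p = 0.074, 0.078 and 0.072). At an adjusted p under 0.1, which 14.2% of all genes reach (9.03% higher and 5.13% lower), 5 of the 34 passed, namely Acly, Fasn and Me1 with positive values and Fads2 and Fdft1 with negative ones. The other probe set of Me1 gave 1.07 ± 0.23, and 2 other bright probe sets of Acly gave 0.87 ± 0.22 and 0.39 ± 0.10. Acaca, the carboxylase that makes malonyl-CoA, had 430, 269 and 401 units in DBZ arrays and 352, 348 and 280 in vehicle arrays. Its groups overlapped, and the log2 difference was 0.14, with a 95% interval of -0.32 to 0.60 (limma).

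**Figure D2:**
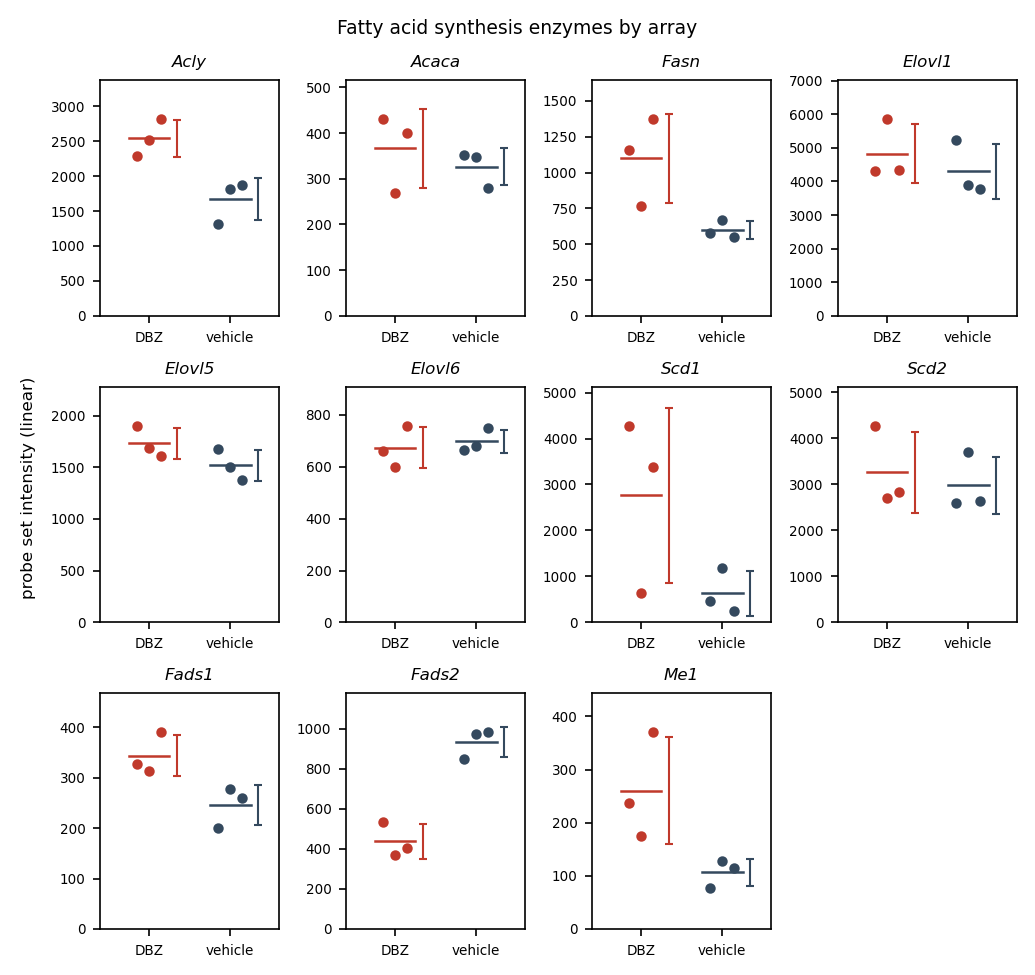
Probe set intensity (linear axis from 0) of the 11 fatty acid synthesis enzymes, with a point for each array, a bar at the mean and a bracket for the SD (n = 3 per group). Fads2 is below vehicle in all 3 DBZ arrays, Acly, Fasn, Fads1 and Me1 are above it, and Scd1 spans 636 to 4276 units within the DBZ group.

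Scd1 had the widest spread of the 34 genes within either group. It encodes the stearoyl-CoA desaturase that makes monounsaturated fatty acids and is abundant in fat and in sebaceous glands. It had 4276, 636 and 3378 units in DBZ arrays and 476, 1180 and 243 in vehicle arrays. DBZ replicate 2 lay below vehicle replicate 2, so the groups overlapped. The highest value was 6.73 times the lowest within the DBZ group and 4.86 times within the vehicle group. The log2 fold change of 1.99 had a 95% interval of -0.10 to 4.07 and did not pass (limma, adjusted p = 0.21). Scd2, its close relative, had 4269, 2691 and 2824 units in DBZ arrays and 2588, 3694 and 2638 in vehicle arrays. It overlapped between the groups as well, at a log2 difference of 0.12 (95% interval -0.42 to 0.66). Another bright probe set of each gene gave 0.61 ± 0.38 for Scd1 and 0.66 ± 0.33 for Scd2 (SE, n = 3 each). On both of them the groups overlapped, so the size of either difference depended on the probe set.

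Part of the adipocyte markers rose. Of 11 measured, 8 were positive and 3 negative (Pck1, Cidea and Lep), with a median log2 fold change of 1.56 over the list. The 4 that passed the test were all higher. Adiponectin, Adipoq, had 1451, 1170 and 3256 units in DBZ arrays, against 252, 480 and 133 in vehicle arrays, and Car3, an abundant carbonic anhydrase of fat, had 7896, 5890 and 14090, against 951, 1563 and 642. DBZ replicate 2 was the lowest DBZ array for Adipoq, Car3, Scd1, Fasn and Me1, and vehicle replicate 2 the highest vehicle array for all 5. Acly, in contrast, was lowest in DBZ replicate 1 and highest in vehicle replicate 3. The low place of DBZ replicate 2 was not particular to Scd1, Fasn and Me1. It was the lowest DBZ array for 8 of the 11 fatty acid enzymes, Fads2 among them, and for 10 of the 17 sterol enzymes. Pck1, a gene of fat that enterocytes and liver also express, had 461, 214 and 409 units in DBZ arrays, against 922, 1748 and 835 in vehicle arrays, the opposite side. Of the fibroblast and smooth muscle markers 7 of 11 rose, with a median of 0.97. Without 1 array, 0 to 5 adipocyte markers and 0 to 8 of the fibroblast and smooth muscle markers passed (0 of either without vehicle replicate 1 or 2), while the medians stayed at 1.23 to 1.78 and 0.71 to 1.14. Mesothelial markers had a median of 0.89, with 5 positive, 1 negative and 0 past the test (limma). Their median deviation from vehicle means was 1.15, 0.14 and 1.34 in DBZ replicates 1, 2 and 3. Of 9 neutrophil and myeloid markers 6 were negative and 2 rose, namely S100a8 (4.97) and S100a9 (4.82). S100a8 had 1486, 308 and 2746 units in DBZ arrays, and S100a9 had 1456, 259 and 2532. The part of any of these cells in the fatty acid enzyme values was not tested.

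**Figure D3:**
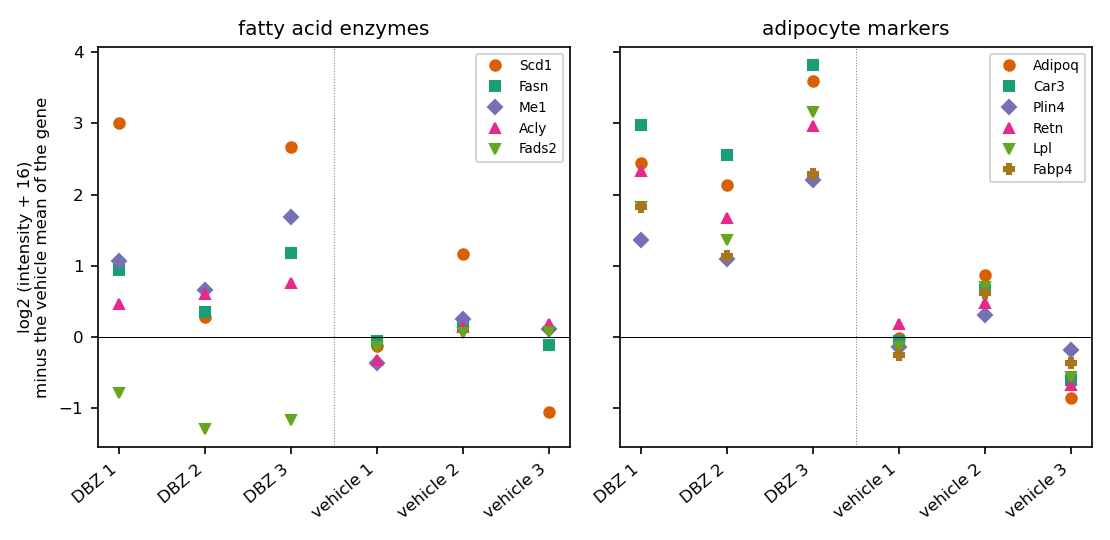
Log2 (intensity + 16) of each gene minus its vehicle mean, by array, for 5 fatty acid enzymes (left) and 6 adipocyte markers (right). The 6 drawn, of 11 measured, are markers that were higher in every DBZ array. Of the 11, 8 were positive and 3 negative (Pck1, Cidea and Lep, not drawn). DBZ replicate 2 is the lowest DBZ array for Scd1, Fasn, Me1 and Fads2 and for the 6 markers drawn. Fads2 lies below 0 in the 3 DBZ arrays.

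None of the 3 elongases passed the test. Elovl6, which lengthens palmitate to stearate, had 662, 600 and 758 units in DBZ arrays and 666, 680 and 749 in vehicle arrays. The log2 difference was -0.06, with a 95% interval of -0.30 to 0.19 (limma). Elovl5, which lengthens polyunsaturated chains, was at 0.19 ± 0.10, and Elovl1, which makes very long saturated chains, at 0.17 ± 0.17 (SE, n = 3 each). Both overlapped between the groups (limma, adjusted p = 0.29 and 0.59). Their other bright probe sets were all positive, from 0.18 to 0.49. On 3 of those 4 the groups did not overlap, against 33.2% of all genes, but probe sets of a gene are not independent. Vehicle replicate 1 was the highest vehicle array on the probe sets used for Elovl5 and Elovl1. It was the lowest on the other probe set of Elovl5 and on that of Elovl1 at 0.49.

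No sterol enzyme passed the test (0 of 17; limma), and 5 of 17 had an unadjusted p under 0.05, or 29.4%, against 26.3% of all genes. In these same 5 genes, and no other sterol enzyme, the groups did not overlap (29.4%, against 33.2% of all genes). Hmgcs1, the synthase that feeds acetyl-CoA into the pathway, had 8083, 6716 and 8180 units in DBZ arrays, against 10298, 8732 and 8893 in vehicle arrays. Fdft1, the squalene synthase that commits farnesyl diphosphate to sterols, had 3091, 2448 and 2841, against 3829, 3468 and 3483. Both were lower in every DBZ array, at log2 differences of -0.28 ± 0.11 and -0.37 ± 0.10 (SE, n = 3 each; limma, adjusted p = 0.17 and 0.085). Sqle, the squalene epoxidase and a rate-limiting step, had 2618, 1978 and 1779 units in DBZ arrays and 1865, 2244 and 2409 in vehicle arrays. Its groups overlapped, at -0.04 with a 95% interval of -0.45 to 0.36.

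The late steps from lanosterol to cholesterol held the other 3 of the 5. Hsd17b7, a reductase of the demethylation steps, had 675, 583 and 546 units in DBZ arrays, against 1001, 764 and 751 in vehicle arrays. Dhcr7, which catalyses the last step to cholesterol, had 507, 405 and 378, against 771, 613 and 519. Their log2 differences were -0.46 ± 0.14 and -0.54 ± 0.17 (SE, n = 3 each; limma, adjusted p = 0.1 and 0.12). Ebp, the sterol isomerase, lay on the other side, with 2021, 1969 and 2405 units in DBZ arrays, against 1215, 1846 and 1631 in vehicle arrays. It stood at 0.46 ± 0.17 (limma, adjusted p = 0.15). These 3 late genes thus had values of both signs, none past the test. The remaining 11 overlapping enzymes besides Sqle cover the mevalonate kinases Mvk and Pmvk, the decarboxylase Mvd, the isomerase Idi1, Fdps, the cyclase Lss and the later enzymes Cyp51, Tm7sf2, Msmo1, Nsdhl and Sc5d. They ranged from -0.21 for Nsdhl to 0.39 for Fdps, none past the test. Tm7sf2, a sterol reductase, varied most among the sterol enzymes within DBZ arrays, at 869, 659 and 408 units, against 510, 530 and 473 in vehicle arrays.

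Stard4, a soluble protein that moves cholesterol between membranes, had 2711, 2452 and 1736 units in DBZ arrays, against 2719, 3492 and 2923 in vehicle arrays. The groups were barely apart, and the log2 difference of -0.42 ± 0.18 (SE, n = 3 each) did not pass (limma, adjusted p = 0.21). Its other probe sets were at -0.22 ± 0.12 and -0.49 ± 0.17.

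**Figure D4:**
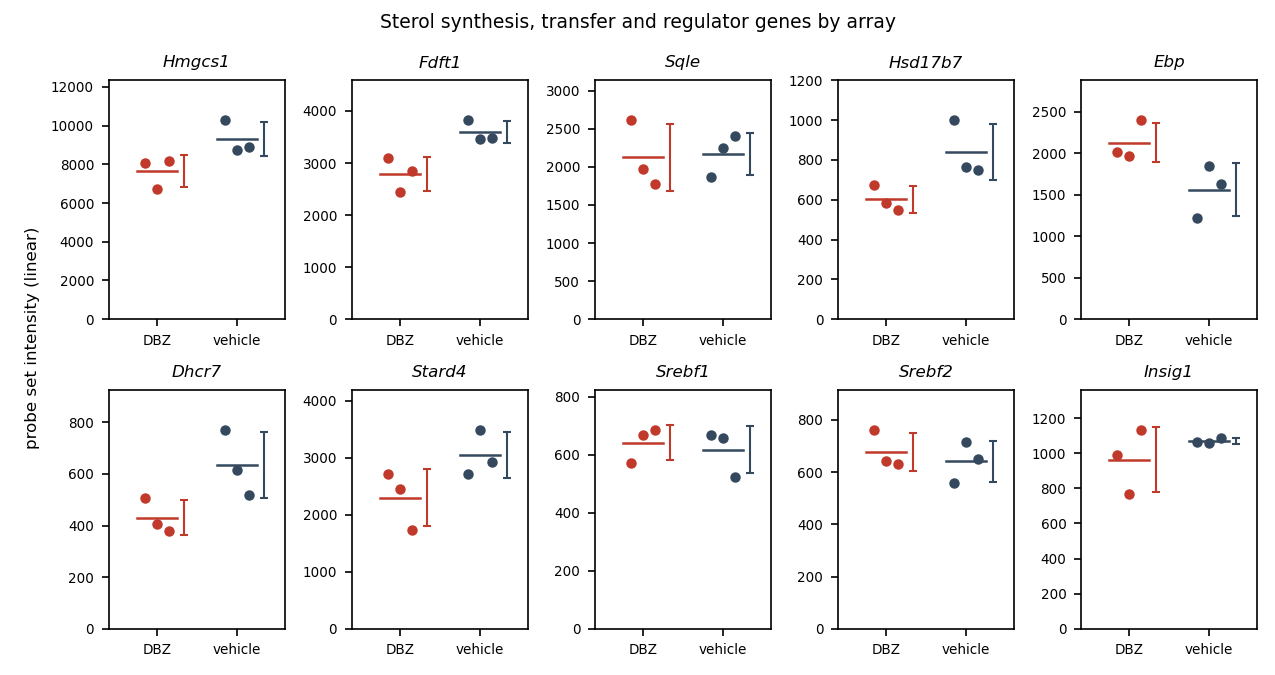
Probe set intensity (linear axis from 0) of 6 sterol enzymes, Stard4 and 3 regulators, with a point for each array, a bar at the mean and a bracket for the SD (n = 3 per group). Hmgcs1, Fdft1, Hsd17b7, Dhcr7 and Stard4 are lower in all 3 DBZ arrays and Ebp is higher, while Sqle, Srebf1, Srebf2 and Insig1 overlap.

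The regulators did not separate the groups. None of the 5 passed (0; limma), 0 had an unadjusted p under 0.05, and the groups overlapped for all 5. Srebf1, the gene of SREBP-1, had 573, 667 and 687 units in DBZ arrays and 669, 659 and 525 in vehicle arrays, a log2 difference of 0.06 (95% interval -0.23 to 0.35). Srebf2, the gene of SREBP-2, had 763, 642 and 632 units in DBZ arrays and 560, 715 and 650 in vehicle arrays, at 0.08 (95% interval -0.20 to 0.36). The intervals of both leave room for a change of either sign. Insig1, itself a target of the SREBPs, had 990, 766 and 1134 units in DBZ arrays and 1061, 1055 and 1088 in vehicle arrays, at -0.16 (95% interval -0.51 to 0.18). Insig2 was at -0.19 ± 0.11. Scap, the escort of the SREBPs, had the smallest spread of the 34 within the vehicle group, with 511 to 539 units in DBZ and 538 to 551 in vehicle arrays, at -0.06 (95% interval -0.19 to 0.08). SREBP activity is set by cleavage of the protein, which these arrays do not measure.

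Different probe sets of a gene did not always give the same answer. Of 20 genes with more than 1 probe set above the array's median brightness, 5 had probe sets of opposite sign. These were Hmgcs1, Mvk, Mvd, Cyp51 and Insig2. The Hmgcs1 value of -0.28 came from the brightest probe set, while its others were at -0.11, -0.04, 0.08 and 0.21. The brightest probe set of Hsd17b7 gave -0.46 and the others above median brightness -0.19 and -0.14, and for Fdft1 the values were -0.37 and -0.13. Vehicle replicate 1 was the highest vehicle array on the probe sets used for these 3 genes, and the lowest on their other probe sets named here, except the dimmest of Hmgcs1. Over 65 such probe sets of the 34 genes it was the lowest vehicle array on 40 and the highest on 12. This is the array with the highest actin ratio. The part of RNA integrity in these values was not tested. Without vehicle replicate 1 the medians were 0.32 for the fatty acid and -0.18 for the sterol enzymes. On the probe sets used, it was also the highest vehicle array for Dhcr7 and the lowest for Acly, Me1, Fads1 and Ebp. Without it these 5 genes were at -0.39, 0.45, 0.95, 0.33 and 0.29, against -0.54, 0.61, 1.13, 0.47 and 0.46 with all arrays. Fads2 and Stard4, for which it was the lowest vehicle array, were at -1.15 and -0.50, against -1.08 and -0.42.

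**Figure D5:**
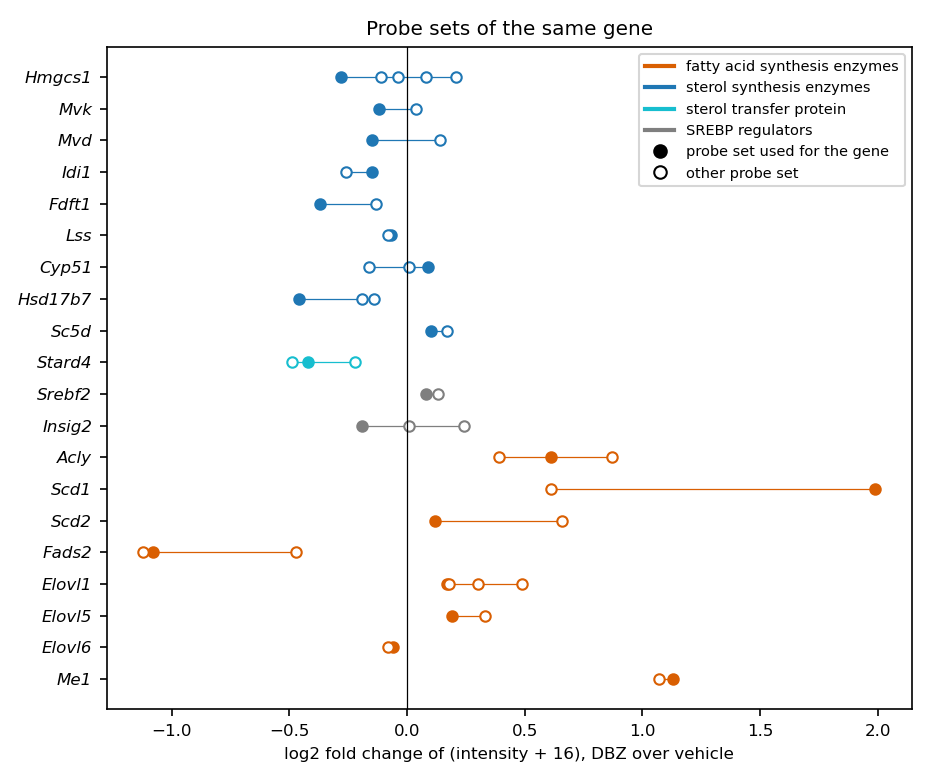
Log2 fold change of (intensity + 16), DBZ over vehicle, of each probe set above the array's median brightness, for 20 genes with more than 1 such probe set. Filled points mark the probe set used for the gene, and Hmgcs1, Mvk, Mvd, Cyp51 and Insig2 have points on both sides of 0.

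The start regions of the 8 genes with a window among the 11 whose groups did not overlap are shown because SREBP acts at such regions together with NF-Y, which binds CCAAT boxes. RefSeq windows of 300 bases (GRCm38.p6), from 250 before to 50 after the annotated start, were at hand for 28 of the 35 genes. For a gene with several starts the most upstream was taken. They are written 5' to 3' on the strand of the gene, with capitals for a sterol regulatory element (TCACNCCAC), a CCAAT box (CCAAT) and an E-box (CACGTG), searched on both strands. Fads2 lies at chr19:10101454-10101753 (minus strand), Fasn at chr11:120824498-120824797 (minus), Acly at chr11:100527951-100528250 (minus) and Me1 at chr9:86695865-86696164 (minus). Of the sterol genes, Hmgcs1 lies at chr13:119690101-119690400 (plus), Hsd17b7 at chr1:169969156-169969455 (minus), Ebp at chrX:8193463-8193762 (minus) and Dhcr7 at chr7:143822917-143823216 (plus).
Fads2: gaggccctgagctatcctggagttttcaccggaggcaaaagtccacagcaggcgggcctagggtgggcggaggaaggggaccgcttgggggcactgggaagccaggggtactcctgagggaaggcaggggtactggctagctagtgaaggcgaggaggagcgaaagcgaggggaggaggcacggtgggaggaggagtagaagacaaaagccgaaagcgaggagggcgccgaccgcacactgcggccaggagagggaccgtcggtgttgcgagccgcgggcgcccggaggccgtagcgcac
Fasn: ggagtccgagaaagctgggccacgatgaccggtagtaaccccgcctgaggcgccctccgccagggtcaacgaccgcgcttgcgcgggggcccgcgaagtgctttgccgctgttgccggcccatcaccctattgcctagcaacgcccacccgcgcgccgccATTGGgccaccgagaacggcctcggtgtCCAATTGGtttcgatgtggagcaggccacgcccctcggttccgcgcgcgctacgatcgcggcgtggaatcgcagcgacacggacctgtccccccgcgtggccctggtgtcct
Acly: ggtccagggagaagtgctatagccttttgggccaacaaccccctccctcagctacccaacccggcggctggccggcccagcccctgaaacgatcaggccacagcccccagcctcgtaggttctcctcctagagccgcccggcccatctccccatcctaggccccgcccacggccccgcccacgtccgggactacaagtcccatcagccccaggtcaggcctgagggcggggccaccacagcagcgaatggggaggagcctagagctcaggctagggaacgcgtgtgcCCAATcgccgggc
Me1: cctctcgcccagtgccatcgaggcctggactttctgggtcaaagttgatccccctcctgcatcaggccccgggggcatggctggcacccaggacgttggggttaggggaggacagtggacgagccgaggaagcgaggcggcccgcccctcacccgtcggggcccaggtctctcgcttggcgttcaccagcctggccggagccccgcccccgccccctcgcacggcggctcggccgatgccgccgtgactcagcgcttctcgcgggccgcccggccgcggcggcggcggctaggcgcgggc
Hmgcs1: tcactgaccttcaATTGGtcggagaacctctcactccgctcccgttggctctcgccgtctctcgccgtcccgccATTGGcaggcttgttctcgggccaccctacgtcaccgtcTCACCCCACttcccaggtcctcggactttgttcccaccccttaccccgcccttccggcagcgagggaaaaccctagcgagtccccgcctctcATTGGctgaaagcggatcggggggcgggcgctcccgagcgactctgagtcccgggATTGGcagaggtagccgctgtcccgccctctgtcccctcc
Hsd17b7: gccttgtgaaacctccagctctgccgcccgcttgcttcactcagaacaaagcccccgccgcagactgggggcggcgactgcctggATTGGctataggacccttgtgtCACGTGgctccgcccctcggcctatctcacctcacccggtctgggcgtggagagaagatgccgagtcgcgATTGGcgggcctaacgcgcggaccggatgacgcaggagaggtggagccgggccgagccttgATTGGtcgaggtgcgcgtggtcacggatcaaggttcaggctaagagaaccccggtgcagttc
Ebp: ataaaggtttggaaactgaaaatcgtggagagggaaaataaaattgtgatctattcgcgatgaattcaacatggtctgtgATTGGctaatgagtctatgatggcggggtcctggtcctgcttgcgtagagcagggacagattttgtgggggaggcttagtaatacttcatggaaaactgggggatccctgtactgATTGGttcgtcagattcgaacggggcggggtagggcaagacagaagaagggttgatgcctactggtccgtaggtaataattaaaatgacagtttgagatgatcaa
Dhcr7: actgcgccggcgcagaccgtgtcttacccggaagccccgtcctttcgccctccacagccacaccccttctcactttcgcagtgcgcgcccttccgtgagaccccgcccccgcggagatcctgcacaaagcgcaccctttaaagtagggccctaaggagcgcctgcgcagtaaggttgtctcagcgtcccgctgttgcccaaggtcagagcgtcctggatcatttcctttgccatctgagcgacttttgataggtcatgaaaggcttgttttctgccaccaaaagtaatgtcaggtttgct

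Fads2 and Dhcr7, lower in DBZ arrays, and Me1, higher in them, held none of these motifs in their windows. Hmgcs1 held the only exact match to the sterol regulatory element among the 28 windows (3.57%, against 1.22% of 27025 genes with a window). The match starts 137 bases before the annotated start. Hmgcs1 also held 4 CCAAT boxes. Fasn held 3 matches to CCAAT, of which 2 overlap in the letters CCAATTGG. Hsd17b7 held 3 and an E-box, Ebp held 2 and Acly 1. CCAAT was found in 21 of the 28 windows, or 75%, against 38% of all genes, and CACGTG in 5, or 17.9%, against 7.24%. By role, CCAAT was in 13 of 15 windows of sterol enzymes, 4 of 5 of regulators and 4 of 8 of fatty acid enzymes. A match is a description of these letters and does not show binding. Only exact letters in 1 window per gene were searched, so a window without a match does not show that a gene lacks the element.

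Other genes of the same pathways were read from 3 lists. Of 31 further genes of fatty acid synthesis and its control 30 were measured, of which 3 rose and 0 fell (10% against 5.34% of all genes, or 3.82% that rose), with a median of 0.03. Mid1ip1, which activates acetyl-CoA carboxylase, rose to 1251, 1445 and 1677 units in DBZ arrays, against 803, 811 and 824 in vehicle arrays. Its log2 fold change was 0.82 ± 0.11 (SE, n = 3 each; limma, adjusted p = 0.026), and the groups did not overlap. The call was kept without DBZ replicate 1 or 3 and lost without DBZ replicate 2 or any vehicle array, at log2 fold changes of 0.72 to 0.92. Hacd4, a dehydratase of fatty acid elongation, rose by 0.57 ± 0.11 (limma, adjusted p = 0.043), a call lost whichever array was left out (0.48 to 0.66; adjusted p = 0.0528 to 0.13). The third was Fads3, described with Fads2. Named after its values were seen, Mlxipl, the gene of the carbohydrate-responsive factor ChREBP, had 523, 376 and 226 units in DBZ arrays, against 773, 1109 and 940 in vehicle arrays. It was lower in every DBZ array but did not pass (-1.35 ± 0.30; limma, adjusted p = 0.056). Thrsp, a lipogenic gene of liver and fat likewise chosen after the fact, had 340, 114 and 638 units in DBZ arrays and 118, 149 and 74.2 in vehicle arrays. As with Scd1, DBZ replicate 2 lay below vehicle replicate 2.

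Of 24 further sterol genes 15 were measured, the others not being analysed here. None passed (0; limma), and the median was 0.10. An unadjusted p under 0.05 was reached by 4, or 26.7%, near the 26.3% of all genes. The 2 with the smallest p were Dhdds, which makes dolichol from the same precursors, at 0.47 ± 0.12, and the oxysterol binding gene Osbp, at 0.25 ± 0.07 (SE, n = 3 each; limma, adjusted p = 0.074 and 0.091). Of 8 genes of the sterol-sensing LXR receptors and their targets 7 were measured and 0 passed (limma), with 3 higher and 1 lower at an unadjusted p under 0.05 (57.1% in all, against 26.3% of all genes) and a median of -0.23. Nr1h3, the gene of LXR alpha, had 143, 126 and 109 units in DBZ arrays, against 164, 201 and 168 in vehicle arrays. Abca1, the cholesterol exporter that LXR switches on, had 594, 397 and 642 units, against 328, 343 and 336. The receptor gene was thus lower and this target higher in every DBZ array, at -0.45 ± 0.12 and 0.64 ± 0.18 (SE, n = 3 each; limma, adjusted p = 0.078 and 0.083). Other targets lay on both sides, with Apoe at 0.53 and Abcg1 at 0.15, and the sterol exporter genes Abcg5 at -0.50 and Abcg8 at -0.53, whose groups overlapped.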

How the data were processed

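Gene expression was measured on 6 arrays, 3 of DBZ and 3 of vehicle mice. The authors deposited linear intensities per probe set. How these were normalized, and with which software, is not given in the sources used here. Detection calls were not used. The median intensity per array was 44.9 to 46.3, which is within the limit of 0.1 on the log2 scale set for leaving values as deposited. With 3 arrays per group, precision is limited by their number. Of 45101 probe sets, 34945 with a single symbol that were no array controls were used, and a gene was represented by the probe set with the highest mean log2(intensity + 16). Changes of dim genes come out too small on this scale. DBZ was compared with vehicle over all 18193 genes with limma 3.58.1 in R 4.3.3 (lmFit, eBayes, two-sided, Benjamini-Hochberg), a step tested on simulated data. An exact permutation test of 1 gene cannot go below p = 0.1 here. The members and lists were chosen with earlier results of these data known. The naming rule gave values by array for members past the threshold, for up to 6 per role whose groups did not overlap and for 12 fixed members; other pathway genes were named for up to 4 past the threshold per list or the 2 with the smallest p. Alternatives were quantile normalization, median centring, pseudocounts of 1 and 64, leaving out dim genes, other choices of probe set, trend and robust variance, array weights, a replicate block, a threshold of 0.1 and leaving out each array.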

Additional observations from a re-analysis of the deposited data

How the results depend on the processing

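Fads2 was past the threshold under 11 of 16 alternatives and kept its direction under all 16, at log2 fold changes of -1.23 to -0.89 and limma adjusted p-values of 0.0066 to 0.096. The 5 that ended the call each left out 1 array. The count of the 34 genes past the threshold, 1 as reported, was 2 with a pseudocount of 1 (Me1 added), 4 among genes above the median gene (Acly, Fasn and Me1), 2 with the mean of all probe sets (Fdft1), 3 with trend and robust variance (Fasn and Me1), 3 with array weights (Fdft1 and Acly) and 5 at a threshold of 0.1. It was 0 to 2 when an array was left out: 2 without DBZ replicate 1 (Fdft1 added), 1 without DBZ replicate 2 (Fasn in place of Fads2) and 0 without DBZ replicate 3 or any vehicle array. With the replicate block it was 4 (Hsd17b7, Dhcr7 and Acly added). Deviations from the group means correlated at -0.00863, 0.246 and 0.2 between same-numbered arrays 1, 2 and 3. Between differently numbered arrays they correlated at -0.289 to 0.0136. The values of replicates 2 and 3 were thus the highest. The labels do not say that the numbers pair mice, and the main test was unpaired. Whether they do was not settled. Over all genes, 972 passed as reported, 440 with a pseudocount of 64, 2690 with array weights, 2575 at a threshold of 0.1 and 19 to 2032 without 1 array, namely 2032, 217 and 352 without DBZ replicates 1, 2 and 3 and 49, 19 and 38 without vehicle replicates 1, 2 and 3. The fatty acid median, 0.19, was 0.47 without probe sets that may cross-hybridise (_x_at and _s_at), 0.33 with array weights and 0.12 to 0.34 without 1 array. The sterol median, -0.12, was -0.20 with quantile normalization, -0.04 with the mean of all probe sets and -0.18 to -0.02 without 1 array. Values near 0 changed sign without 1 array. Srebf2 ranged from -0.01 to 0.16, negative without DBZ replicate 1 (-0.004) or vehicle replicate 1 (-0.01). Srebf1 ranged from -0.05 (without vehicle replicate 3) to 0.14, Scd2 from -0.09 (without DBZ replicate 1) to 0.29 and Elovl6 from -0.14 to 0.02 (without DBZ replicate 2). Sqle ranged from -0.20 to 0.07, positive without DBZ replicate 3 (0.07) or vehicle replicate 3 (0.04). Fits without 1 array rest on fewer samples, yet the count over all genes was higher without DBZ replicate 1. The cause of these differences was not tested. The same step for genes outside the 34 was added after seeing the data. Without detection calls, signal over background could not be set for dim probe sets.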
